A study of Homo sapiens with 8 samples.

Results

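TUG1, NORAD, DANCR, OIP5-AS1, CRNDE, LINC-PINT, CYTOR and EPB41L4A-AS1 are long noncoding RNAs (lncRNAs) that are known from more than a single compartment of the cell. These 8 genes were looked up in a short-read table of chromatin and nucleoplasm RNA and in a long-read table of chromatin transcripts, both from HAP1 cells. Assembled short-read genes were named by span: among GENCODE genes of that strand, the name went to the one sharing most of the joint span (the Jaccard index), provided that it shared at least 0.5. By this rule, 5 of the 8 had a short-read gene of their own and were also listed in the long-read table: TUG1, NORAD, CRNDE, LINC-PINT and EPB41L4A-AS1. DANCR, OIP5-AS1 and CYTOR fell in short-read genes that the assembly had merged with a neighbor, so their short-read values are given only as values of the merged gene. The short-read table held 62635 genes besides the spike-in standards.

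HAP1 is a near-haploid human line derived from the KBM-7 leukemia line, and all libraries come from this line, untreated. Nuclei were treated with a buffer of urea and the detergent NP-40 substitute and centrifuged, which gave a chromatin pellet and a nucleoplasm supernatant. Short-read libraries were made from both fractions (n = 3 each, directional, 50-base reads), and long-read direct cDNA libraries were made from chromatin only (n = 2). The fraction of each library was taken from its title, since another label field names chromatin for the nucleoplasm libraries too. Recovered depth was 38895027 to 43804918 reads in chromatin and 75737601 to 79523938 in nucleoplasm. MALAT1 and PVT1, lncRNAs held at chromatin, were higher in chromatin by 3.09 (SE 0.08) and 3.11 (SE 0.10) on the log2 scale. GAPDH and B2M, which encode abundant cytoplasmic mRNA products, had fold changes of -2.35 and -2.11, so the titles and the markers point the same way. BCR and ABL1, the fused genes of the parent leukemia, were both measured, while 4 of the 5 blood cell genes with a short-read gene were at 0 in every library and the fifth, CD33, reached 4.39 normalized counts at most. All 6 mitochondrial mRNA genes with a short-read gene were lower in chromatin, with a median of -1.35, and 5 of the 6 also at equal totals.

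Most lncRNAs stay in the nucleus, many of them near the site of their transcription, but some are exported. NORAD is an abundant cytoplasmic RNA that binds Pumilio proteins through repeated copies of their recognition sequence. OIP5-AS1, also called Cyrano, carries a site of unusually long pairing to the microRNA miR-7. TUG1 has been described in both nucleus and cytoplasm, LINC-PINT as a nuclear RNA that contacts the Polycomb complex PRC2, CRNDE as an oncofetal RNA, CYTOR as a cytoplasmic RNA, and DANCR and EPB41L4A-AS1 as hosts of small nucleolar RNAs (snoRNAs) in their introns.

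The sequences that set these RNAs apart, or that limit what a short read can tell about them, are shown first. NORAD (ENST00000565493.2, 5401 bases, chromosome 20) has 15 matches to the Pumilio sequence, searched on the transcript strand as TGTANATA with overlaps allowed. Of these, 10 read TGTATATA, 4 read TGTAAATA and 1 reads TGTACATA. Among 926 annotated lncRNA transcripts within 20% of its length, 43.7% had at least 1 match. At least as many as in NORAD were found in 0.432%, and NORAD itself was not removed from this set. The longest transcripts of TUG1 and EPB41L4A-AS1 had 2 matches each, that of OIP5-AS1 had 1, and those of the other 4 genes had 0. A match of each form in NORAD is given here, from the minus strand of hg38, with the motif in capitals.

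NORAD site 1, chr20:36050182-36050211: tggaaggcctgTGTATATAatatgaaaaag
NORAD site 3, chr20:36049702-36049731: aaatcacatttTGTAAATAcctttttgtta
NORAD site 5, chr20:36049492-36049521: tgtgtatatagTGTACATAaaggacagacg

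The longest transcript of OIP5-AS1 (ENST00000500949.7, 8881 bases) has 3 matches to GTCTTCC, the complement of the miR-7 seed, searched on the transcript strand. Of the 189 lncRNA transcripts of similar length, 3.70% have at least as many, with those of OIP5-AS1 not removed. DANCR has 2 such matches, LINC-PINT 1 and the other 5 lncRNAs 0. At the match at chr15:41300570-41300599 (plus strand of hg38), an unbroken run of 14 bases upstream of the seed match is also complementary to miR-7, against 5 and 3 bases at the other 2 matches. The site lies in 12 of the annotated transcripts. It is printed with the seed match in capitals, beside mature miR-7 from RefSeq (GRCh38.p14) with its seed, bases 2 to 8, in capitals.

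OIP5-AS1 site, chr15:41300570-41300599: taagaacaacaaaatcaccaatGTCTTCCa
hsa-miR-7-5p: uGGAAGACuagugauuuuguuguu

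The reads were 50 bases long, and a read of a sequence found more than once cannot be placed by that sequence alone. All 10102 windows of 50 bases in the annotated exons of TUG1 were found once on the assembled chromosomes of hg38. The same held for 99.8% of windows in CRNDE, 99.5% in EPB41L4A-AS1, 97.5% in LINC-PINT, 96.9% in DANCR and 86.5% in OIP5-AS1. NORAD and CYTOR stood below these, with 58.6% and 29.9%. NORAD shared 1203 windows (22.5%) with chromosome 12, 29389738 to 29394585, inside OVCH1-AS1, and 1074 windows (20.1%) with chromosome 5, 25188467 to 25190845. CYTOR shared 9027 of its 16508 windows (54.7%) with MIR4435-2HG, its duplicated relative on the same chromosome. The longest run identical in both had 593 bases, and its first 60 are printed in lower case from the plus strand of hg38; the same letters stand on the minus strand at chromosome 2, 111362739 to 111362798.

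CYTOR and MIR4435-2HG shared exon, chr2:87588025-87588084: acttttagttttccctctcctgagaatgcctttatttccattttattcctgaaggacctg

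**Figure D1:**
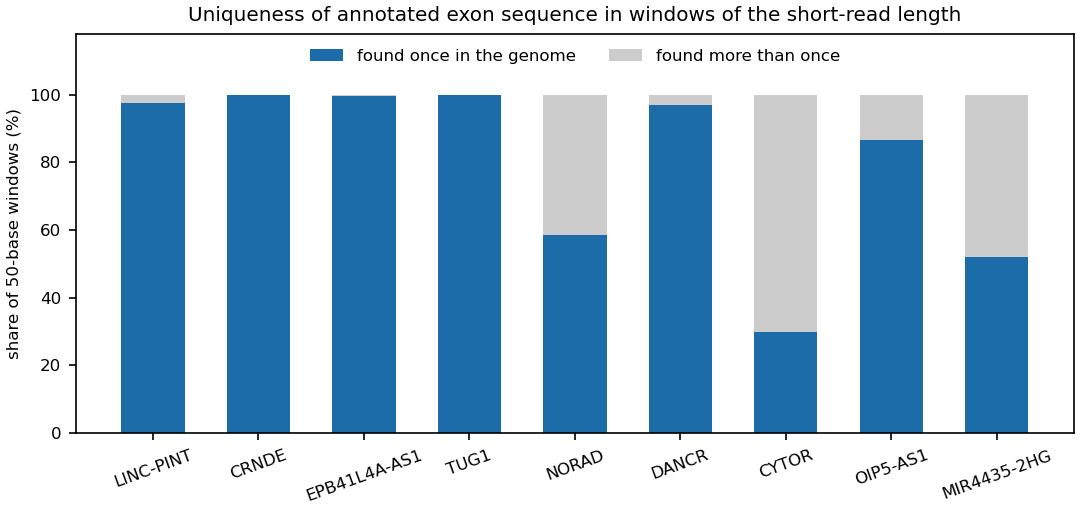
Share of 50-base windows in the annotated exons of each lncRNA (vertical axis, %) that occur once or more than once in hg38, with MIR4435-2HG beside them. Unique windows made up over 95% in 5 of the 8 lncRNAs, 86.5% in OIP5-AS1, 58.6% in NORAD and 29.9% in CYTOR.

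LINC-PINT starts head to head with MKLN1, which encodes muskelin, and the short-read genes of both share the 81 bases printed here on the LINC-PINT strand.

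LINC-PINT and MKLN1 start overlap, chr7:131110096-131110176: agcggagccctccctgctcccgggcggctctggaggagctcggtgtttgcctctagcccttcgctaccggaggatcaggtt

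The first comparison asks which of these RNAs were higher in chromatin and which in nucleoplasm. Counts do not separate RNA still being transcribed from finished RNA held at chromatin. On the deposited scale (counts divided by the size factors of DESeq2), 4 of the 5 named lncRNAs were higher in chromatin and NORAD was higher in nucleoplasm. LINC-PINT was 14-fold and CRNDE 6.52-fold higher in chromatin, EPB41L4A-AS1 and TUG1 were 2.02-fold and 1.81-fold higher, and NORAD was 1.34-fold higher in nucleoplasm (ratios of means, n = 3 against 3). Tests were limma fits on log2(normalized count + 1) over 26489 genes with Benjamini-Hochberg adjustment. Differences between fractions were the rule in these libraries: 44.2% of all genes tested passed an adjusted p of 0.05 as higher in chromatin and 45% as higher in nucleoplasm, and in 90.5% the libraries of the fractions did not overlap. A call is therefore common in these libraries, and the size of the difference sets genes apart. A fold change above 2 on the log2 scale, the limit the study uses for chromatin-enriched RNA, was reached by 2 of the 5 (LINC-PINT and CRNDE), against 21.4% of all genes. The median log2 fold change was 0.98 over the 5, 1.53 over the 3443 lncRNAs tested, -0.39 over 12493 protein-coding genes and -0.01 over all genes.

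LINC-PINT (MSTRG.31412, chromosome 7, 130791264 to 131110176, minus strand) had 8118, 9737 and 6993 normalized counts in chromatin replicates 1 to 3 and 565, 615 and 596 in nucleoplasm. Every chromatin library was above every nucleoplasm library. The log2 difference between fractions came to 3.79 (SE 0.11, adjusted p = 1.89e-08 by limma), and 92.9% of lncRNAs tested had a lower value. The small overlapping gene MSTRG.31417 (ENSG00000271204, 130930209 to 130932206), inside LINC-PINT on the same strand, had 298 to 479 reads in chromatin and 7 to 13 in nucleoplasm, with a difference of 5.59 (SE 0.29).

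CRNDE (MSTRG.12572, chromosome 16, 54845189 to 54929189, minus strand) had 13517, 13282 and 13494 normalized counts in chromatin and 1913, 2200 and 2068 in nucleoplasm. The chromatin libraries differed among themselves by less than those of the other 4 lncRNAs, with an SD of 129 on a mean of 13431. The log2 difference came to 2.71 (SE 0.06, adjusted p = 1.3e-08 by limma), above that of 78.4% of lncRNAs tested.

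TUG1 (MSTRG.21758, chromosome 22, 30969245 to 30979395, plus strand), which this annotation lists as protein coding, had 5462, 4980 and 4605 normalized counts in chromatin and 2951, 2760 and 2585 in nucleoplasm. The fractions did not overlap, and the log2 difference came to 0.86 (SE 0.07, adjusted p = 7.03e-06 by limma). Of the lncRNAs tested, 32.4% had a lower fold change.

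EPB41L4A-AS1 (MSTRG.26578, chromosome 5, 112160526 to 112164818, plus strand) had 1443, 1403 and 2222 normalized counts in chromatin and 792, 866 and 845 in nucleoplasm. Chromatin replicate 3 was 1.56 times the mean of the other two, the widest spread among the 5. The log2 difference came to 0.98 (SE 0.16, adjusted p = 0.000423 by limma), and to 0.77 without that library. In the same library all 8 of the snoRNA host lncRNAs tested had their highest chromatin value, at a median of 1.26 times the mean of the other two, while over all genes tested the ratio was 1.00 and 33.8% were highest there. GAPDH was 1.17 times and MALAT1 0.911 times the mean of the other chromatin libraries. Their part in the EPB41L4A-AS1 value was not tested.

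NORAD (MSTRG.20602, chromosome 20, 36045618 to 36051018, minus strand) had 8317, 6835 and 7805 normalized counts in chromatin and 10910, 9982 and 9822 in nucleoplasm. Every nucleoplasm library was above every chromatin library, and the log2 difference came to -0.42 (SE 0.08, adjusted p = 0.000891 by limma). Of the lncRNAs tested, 9.85% had a lower value. The difference rests on the scaling: with every library set to the same total, which moved the median of all genes to 0.45, NORAD had 0.041 (SE 0.07, adjusted p = 0.573 by limma). OVCH1-AS1, which holds part of the NORAD sequence, had 633 to 772 normalized counts in chromatin and 920 to 1054 in nucleoplasm, with a difference of -0.47 (SE 0.09). Reads of the shared sequence cannot be told apart in these counts.

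**Figure D2:**
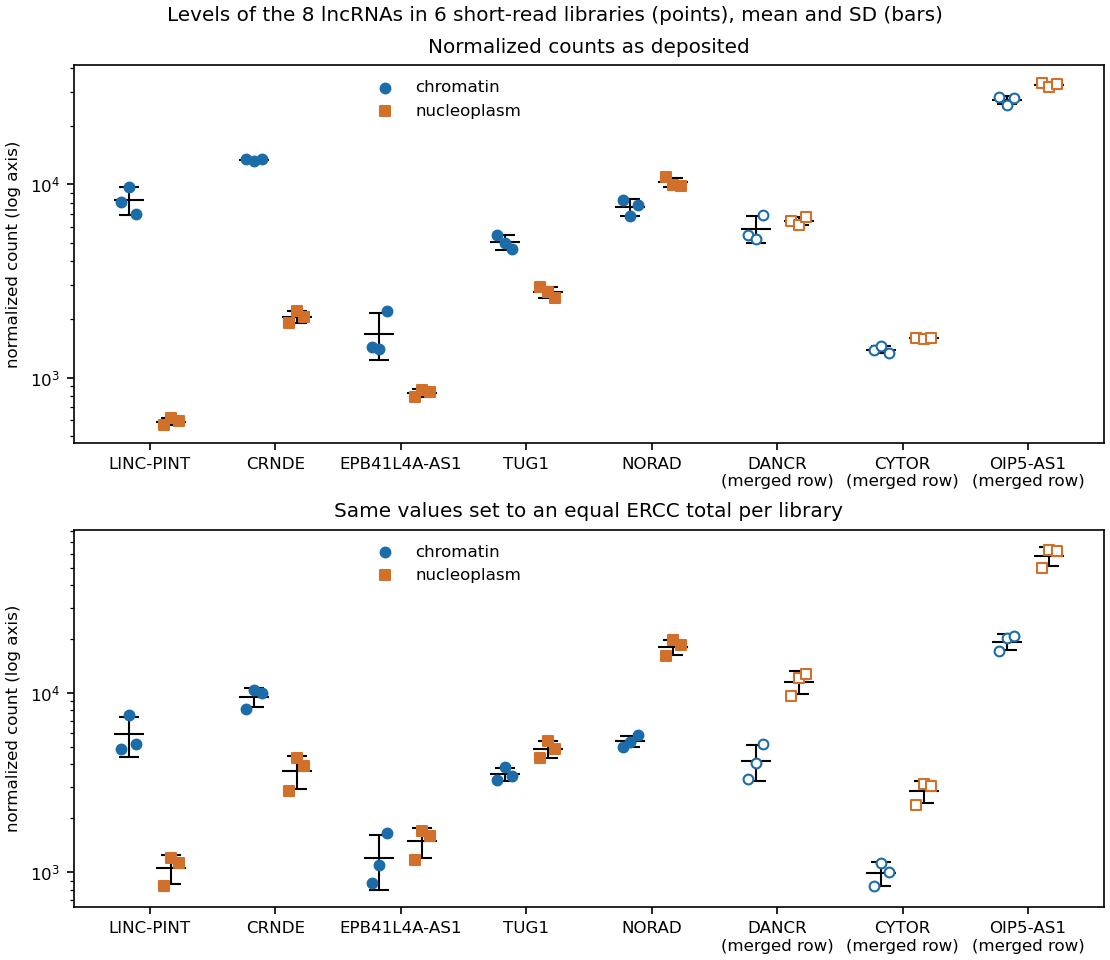
Normalized counts (log axis) of each lncRNA in the 3 chromatin (blue circles) and 3 nucleoplasm (orange squares) libraries, as deposited (top) and at equal ERCC totals (bottom), with the mean and SD; open symbols are merged genes. LINC-PINT and CRNDE stand apart between fractions in both panels, the means of TUG1 and EPB41L4A-AS1 change sides, with overlapping libraries for EPB41L4A-AS1 at equal ERCC totals, and NORAD is higher in nucleoplasm in both.

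The order of these changes does not depend on the scaling if 2 lncRNAs are compared within the same library. The log2 ratio of LINC-PINT to CRNDE was higher in chromatin than in nucleoplasm by 1.09 (SE 0.15), that of CRNDE to EPB41L4A-AS1 by 1.72 (SE 0.21), and that of TUG1 to NORAD by 1.28 (SE 0.09), and for each of these pairs no chromatin library overlapped a nucleoplasm library. The ratio of EPB41L4A-AS1 to TUG1 differed by 0.13 (SE 0.29) with overlapping libraries, so these neighbors in the order could not be told apart. The order was therefore LINC-PINT, CRNDE, then EPB41L4A-AS1 and TUG1 together, then NORAD. With 3 libraries against 3, an exact permutation test cannot give a p-value below 0.1, and 0.1 was its two-sided value for each of the 5 on the deposited scale.

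The second comparison asks how much of each RNA was in each fraction. The same volume of ERCC standards (synthetic RNAs) was added to each fraction before extraction, so setting libraries to an equal ERCC total puts values on a scale of RNA per fraction. Normalized ERCC sums were 94580 to 122151 in chromatin and 37409 to 49777 in nucleoplasm. The study describes the standards as equivalent in level between the fractions, while these deposited sums differed, and the reason was not tested. At equal ERCC totals the median log2 fold change of all genes was -1.32. Of the 5 lncRNAs, LINC-PINT and CRNDE stayed higher in chromatin, against 22.8% of all genes, and NORAD and TUG1 were higher in nucleoplasm, against 64.6%. Only LINC-PINT was above 2 (12.1% of all genes). For 4 of the 5 the fractions did not overlap, as for 86.5% of all genes.

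At equal ERCC totals LINC-PINT had 4895, 7583 and 5207 in chromatin and 836, 1210 and 1122 in nucleoplasm, which put its mean 5.58-fold higher in chromatin (log2 difference 2.47, SE 0.20). CRNDE had 8151, 10344 and 10048 in chromatin and 2831, 4331 and 3896 in nucleoplasm, a mean 2.58-fold higher (1.38, SE 0.20). For both, every chromatin library was above every nucleoplasm library.

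NORAD had 5015, 5323 and 5812 in chromatin and 16144, 19653 and 18502 in nucleoplasm on the ERCC scale, so that its nucleoplasm mean was 3.36 times its chromatin mean (log2 difference -1.75, SE 0.20). TUG1 had 3294, 3878 and 3429 in chromatin and 4367, 5434 and 4870 in nucleoplasm (-0.47, SE 0.20, adjusted p = 0.024 by limma). The fractions did not overlap, but the TUG1 call was lost without chromatin replicate 1 (adjusted p = 0.0554), chromatin replicate 3 (0.0869), nucleoplasm replicate 2 (0.126) or nucleoplasm replicate 3 (0.0847). EPB41L4A-AS1 had 870, 1092 and 1654 in chromatin and 1173, 1705 and 1591 in nucleoplasm, which overlapped, and its difference of -0.34 (SE 0.21, adjusted p = 0.11 by limma) did not pass the test, although it did with the replicate number as a block (0.0336). Without chromatin replicate 3 it was -0.59 (adjusted p = 0.0257), and without nucleoplasm replicate 1 it was -0.50 (0.027). The error in the ERCC total of a library is shared by all its genes, so p-values on this scale across genes are smaller than the data warrant, and the library values are the safer guide.

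**Figure D3:**
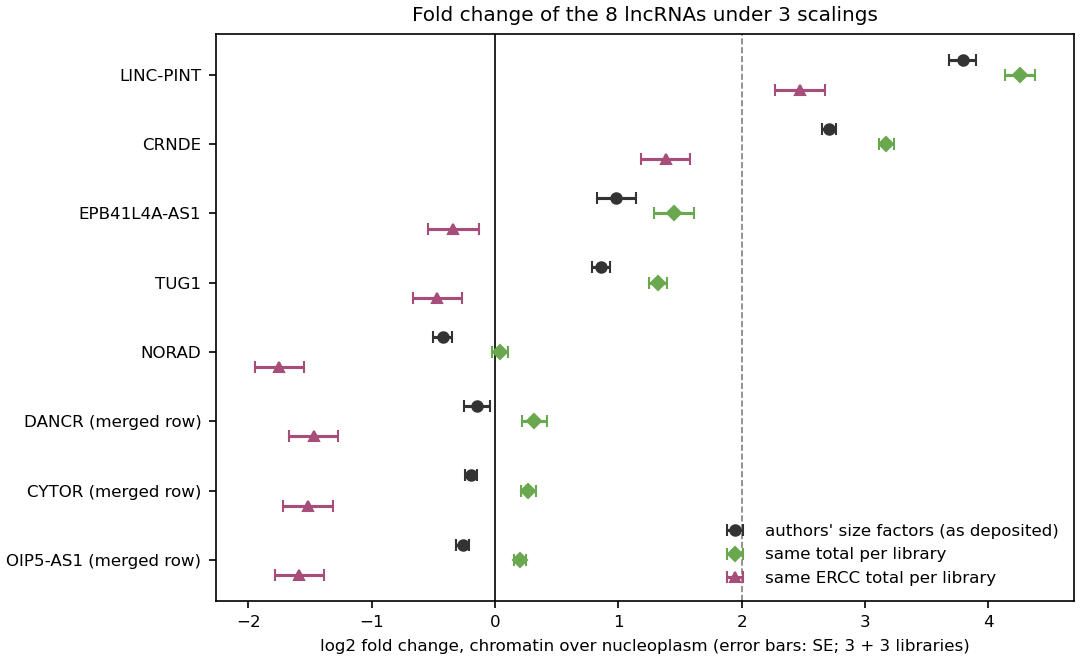
Log2 fold change of chromatin over nucleoplasm (horizontal axis, bars are SE) for the 8 lncRNAs with the deposited size factors, at equal totals and at equal ERCC totals; the dashed line marks 2. LINC-PINT and CRNDE are above 0 under all 3 scalings, while TUG1 and EPB41L4A-AS1 fall from 0.86 and 0.98 to -0.47 and -0.34 at equal ERCC totals.

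Levels of different genes were compared per kilobase of annotated exon on the deposited scale. In chromatin, NORAD had 1417 ± 139 normalized counts per kilobase, CRNDE 911 ± 8.77, TUG1 494 ± 42.3, EPB41L4A-AS1 393 ± 108 and LINC-PINT 304 ± 50.6 (SD, n = 3). TUG1 and EPB41L4A-AS1, and EPB41L4A-AS1 and LINC-PINT, differed by less than the SD of EPB41L4A-AS1. In nucleoplasm, NORAD had 1896 ± 109, TUG1 272 ± 18.0, EPB41L4A-AS1 194 ± 8.82, CRNDE 140 ± 9.73 and LINC-PINT 21.7 ± 0.915, and here each gap was larger than the SDs. By this length NORAD was the most abundant of the 5 in both fractions, and LINC-PINT had the lowest mean. Per kilobase of the longest transcript instead, CRNDE led in chromatin with 2123 and LINC-PINT had 1292, and in nucleoplasm CRNDE (326) stood above EPB41L4A-AS1 (238), so the order in both fractions depends on the length assumed.

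DANCR, OIP5-AS1 and CYTOR were examined as merged genes. The gene over DANCR (MSTRG.24789, chromosome 4, 52712325 to 52866835) also spans LINC01618 and RASL11B, and its Jaccard index with DANCR was 0.0731. It had 5488, 5235 and 6981 normalized counts in chromatin and 6484, 6175 and 6783 in nucleoplasm, which overlapped (log2 difference -0.15, SE 0.10, adjusted p = 0.208 by limma). Chromatin replicate 3 was again high, 1.30 times the mean of the others, and without it the value was -0.27 (adjusted p = 0.00272). In the long-read libraries DANCR had 112 and 64.3 TPM, against 2.01 and 3.70 for LINC01618 and 0 for RASL11B.

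The gene over OIP5-AS1 (MSTRG.10416, chromosome 15, 41283990 to 41381636) runs on through NUSAP1, which encodes a spindle protein, and has a Jaccard index of 0.393 with OIP5-AS1. Its 25910 to 28442 normalized counts in chromatin were below its 31880 to 33673 in nucleoplasm (-0.26, SE 0.05, adjusted p = 0.00175 by limma). In chromatin long reads OIP5-AS1 had 20.5 and 44.9 TPM, NUSAP1 56.5 and 32.1, and assembled transcripts that the span rule named for ENSG00000285920, which starts 49 bases from OIP5-AS1, 157 and 130. Of that last sum, 5 transcripts with 83.4 and 13.4 TPM lay inside the span of OIP5-AS1 and ended before NUSAP1, 2 with 68.7 and 117 TPM started after the end of OIP5-AS1, and 1 with 5.03 and 0 TPM started inside OIP5-AS1 and ended after it. The long-read table thus has more signal inside the OIP5-AS1 span than the transcripts named for it hold.

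The gene over CYTOR (MSTRG.18856, chromosome 2, 87454781 to 87767359) has a Jaccard index of 0.582 with CYTOR, but NCAL1 matched it better. It had 1347 to 1456 normalized counts in chromatin and 1581 to 1602 in nucleoplasm (-0.19, SE 0.05, adjusted p = 0.00476 by limma, but 0.145 with DESeq2). MIR4435-2HG, with which CYTOR shares its windows, had 7107 to 7197 and 8135 to 8847 (-0.24, SE 0.05). At equal totals all of these turned to the chromatin side (0.32 for the gene over DANCR, 0.20 for that over OIP5-AS1, 0.27 for that over CYTOR and 0.23 for MIR4435-2HG), and at equal ERCC totals they lay between -1.47 and -1.59.

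Long reads show which annotated transcripts of the 8 genes were present in chromatin. Values are TPM (transcript abundance corrected for length and scaled to a fixed total per library) in libraries 1 and 2, and no test was made with 2 libraries of a single fraction. All 8 genes had at least 1 transcript above 0, and 41 of their annotated transcripts were above 0 in at least 1 library, 15 of them above 1 TPM in both. Summed over transcripts, DANCR was highest (112 and 64.3), followed by CRNDE (41.7 and 26.8), OIP5-AS1 (20.5 and 44.9), NORAD (32.9 and 28.4), CYTOR (17.2 and 24.9), TUG1 (21.4 and 19.6), LINC-PINT (19 and 15.9) and EPB41L4A-AS1 (7.82 and 1.05). By the transcripts named for each gene, both libraries put DANCR first and EPB41L4A-AS1 last. The order rests on this naming: 5 assembled transcripts inside the OIP5-AS1 span, with 83.4 and 13.4 TPM, are not in its sum. The means of CRNDE, OIP5-AS1 and NORAD lay closer together than the libraries of CRNDE or OIP5-AS1, and those of CYTOR, TUG1 and LINC-PINT closer than the libraries of CYTOR. The study reports unequal read totals for the HAP1 long-read replicates, and TPM does not give the reads behind each transcript.

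For 3 of the 8 genes the same annotated transcript led in both libraries by a wide margin. NORAD had a single annotated transcript. Of the TPM of annotated CRNDE transcripts, ENST00000557792.2 had 84% and 84.9%, followed by ENST00000657142.1 with 8.05% and 7.67%. These shares leave out the assembled MSTRG.29694.11, inside CRNDE on the same strand, with 13.6 and 7.99 TPM. That was below ENST00000557792.2 (35.1 and 22.7) but above ENST00000657142.1 (3.36 and 2.05). EPB41L4A-AS1 had only ENST00000427306.2 above 0. The other genes were less settled.

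TUG1 had 2 transcripts above 0, and their order turned: ENST00000647354.1 had 8.93 and 16.7 TPM, and ENST00000569149.2 had 12.5 and 2.93. DANCR was led by ENST00000411630.7 (64.3 and 25.8 TPM), with ENST00000441504.2 (25.2 and 24.3) close behind in library 2. OIP5-AS1 had ENST00000561226.5 at 11.3 and 14.1 TPM, while ENST00000500949.6, an earlier version of the long transcript with the miR-7 site, was listed at 0 in library 1 and at 23.2 in library 2. However, 3 assembled transcripts named for ENSG00000285920 had the same end and a start within 20 bases of it, with 74.8 and 5.58 TPM in sum, so that transcripts of this span were present in both libraries. LINC-PINT was spread over 12 transcripts, led in library 1 by ENST00000443623.5 (5.21 TPM, at 0 in library 2), and ENST00000647288.1 had 1.53 TPM in library 1 and 12.6, or 78.8% of the gene, in library 2. CYTOR was spread over 11, led by ENST00000645257.1 in library 1 (6.11 and 5.25) and by ENST00000644040.1 in library 2 (3.90 and 10.7). For TUG1, OIP5-AS1, LINC-PINT and CYTOR, the leading annotated transcript differed between the 2 libraries. Counted singly, the assembled MSTRG.25134.2 led inside the OIP5-AS1 span in library 1 (52.8 and 4.82 TPM) and ENST00000500949.6 in library 2. Pooled with ENST00000500949.6, the 3 assembled transcripts had 74.8 and 28.8 TPM and led in both. Whether they share its exons cannot be seen from their spans.

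**Figure D4:**
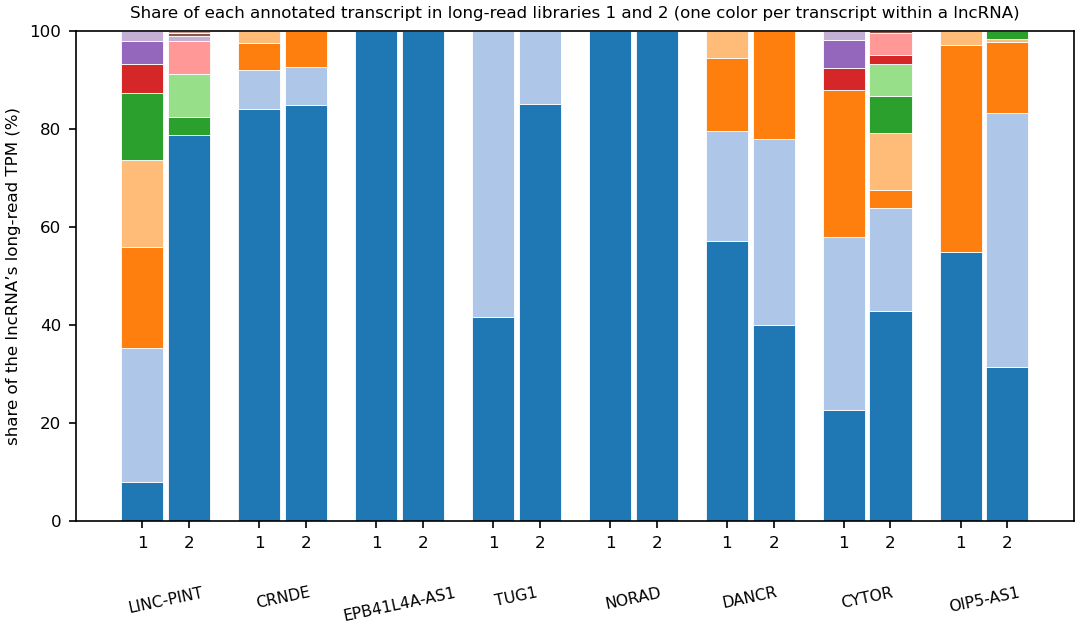
Share of each gene's long-read TPM (vertical axis, %) taken by each annotated transcript in libraries 1 and 2, with a color for each transcript within a gene. CRNDE keeps its leading annotated transcript at 84% and 84.9%, while for TUG1, OIP5-AS1, LINC-PINT and CYTOR a different annotated transcript leads in each library. Assembled transcripts, such as those of the OIP5-AS1 and CRNDE spans, are neither drawn nor counted in the total.

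Direct cDNA reads do not carry the strand of the RNA, so transcripts on the other strand were counted beside each gene. Inside the span of TUG1, ENST00000602847.1 (ENSG00000269987) on the minus strand had 23.1 and 24.2 TPM, next to 21.4 and 19.6 for TUG1. In the directional short reads the gene at this place (MSTRG.21759) had 0 reads in all 6 libraries, which allows up to 3 reads in each (counting error only). DANCR showed the same: ENST00000651729.1 (ENSG00000286161) on the other strand had 108 and 110 TPM, and its short-read gene had 0 reads in all 6 libraries. Inside LINC-PINT the short-read gene of LINC00513, on the other strand, had 5 to 7 reads in chromatin and 0 in nucleoplasm. In long reads, transcripts on the other strand inside a span were set against those named for the gene. Of their joint TPM, the other strand held 66.5% and 67.4% for LINC-PINT and 42.2% and 50.1% for CRNDE. It held 41.9% and 21.7% for OIP5-AS1 and 32.7% and 35.4% for CYTOR. Same-strand transcripts under other names were left out, such as MSTRG.74665.15 inside LINC-PINT (3.58 and 11.3 TPM). These are therefore not shares of all TPM inside a span. For NORAD and EPB41L4A-AS1 the other strand had 0. Only transcripts lying wholly inside a span were counted, so longer ones, as of EPB41L4A over EPB41L4A-AS1, could not appear. A long-read level is thus that of the strand it was assigned to, also where no transcript on the other strand was counted.

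**Figure D5:**
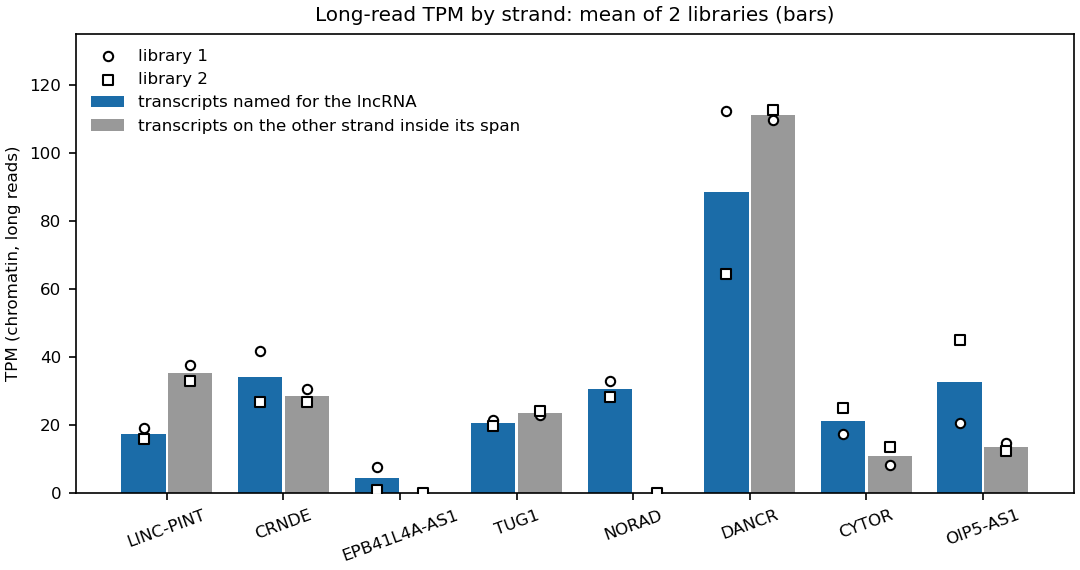
TPM of the transcripts named for each lncRNA (blue) and of transcripts on the other strand inside its span (grey), as the mean of the 2 chromatin long-read libraries (bars) with each library as a point. The bars are of similar height for TUG1 (20.5 and 23.6) and the other strand is higher for DANCR and LINC-PINT.

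SNORA13, the snoRNA hosted by EPB41L4A-AS1, was listed with 1.41 and 14.3 TPM in long reads, while the host itself had 7.82 and 1.05, so library 2 held more of the snoRNA entry and less of the host. In DANCR, SNORA26 had 0.0738 and 0.0324 TPM. Of the 11 snoRNA host lncRNAs listed for comparison, 8 had a short-read gene. On the deposited scale, 6 of the 8 were higher in chromatin, against 44.2% of all genes tested. SNHG7 was higher in nucleoplasm (-0.49, SE 0.11) and SNHG8 did not pass the test (-0.08, SE 0.14). The median of the 8 was 1.32, below the 1.53 over all lncRNAs tested and above the -0.01 over all genes. SNHG12 had the largest change (2.66, SE 0.13), and GAS5, at 0.95 (SE 0.08), was close to EPB41L4A-AS1. At equal totals SNHG8 was also higher in chromatin (0.39) and SNHG7 had -0.026. At equal ERCC totals 3 were higher in chromatin, 3 higher in nucleoplasm and 2 did not pass, with a median of -0.00177 against 0.26 over all lncRNAs tested.

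Genes known as partners of these lncRNAs were listed as well. Of 12, 11 had a short-read gene, 4 of which were higher in chromatin and 7 in nucleoplasm, with a median of -0.85. Over all genes tested these calls were made for 44.2% and 45%, and the median of protein-coding genes was -0.39. PUM2, which encodes a Pumilio protein, was on the opposite side from NORAD, with a fold change of 1.16 (SE 0.06). EZH2 and SUZ12, subunits of PRC2, had 1.5 (SE 0.06) and 0.73 (SE 0.05). KHDRBS1, which encodes an RNA-binding protein, had the lowest value of the list, -1.90 (SE 0.06), and PAF1, CTR9 and LEO1 of the PAF1 elongation complex had -1.45, -1.02 and -0.85. RBMX, at -0.13 (SE 0.05, adjusted p = 0.0291 by limma), turned to 0.34 at equal totals. At equal ERCC totals none of the 11 was higher in chromatin, 9 were higher in nucleoplasm, and PUM2 (-0.16) and EZH2 (0.18) did not pass the test. On that scale 22.8% of all genes were higher in chromatin and 64.6% in nucleoplasm. The median of the list was -2.18, against -1.71 over protein-coding genes. The 4 chromatin-retained lncRNAs listed beside them (MALAT1, NEAT1, KCNQ1OT1 and PVT1) were higher in chromatin on both scales, with medians of 2.75 and 1.54. Of all genes, 44.2% and 22.8% were. KCNQ1OT1 had only 10 to 13 reads in chromatin and 1 to 4 in nucleoplasm (SE 0.37 and 0.53). It reached the count needed for testing in chromatin only, so its call is weak.

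Of the protein-coding genes that start nearest to the 8 lncRNAs, 5 were tested as short-read genes of their own, since that of OIP5-AS1 (ENSG00000285920) is the name of its merged gene. On the deposited scale 2 of the 5 were higher in chromatin and 3 in nucleoplasm, with a median of -0.32. At equal totals 3 were higher in chromatin and 1 in nucleoplasm, and at equal ERCC totals all 5 were higher in nucleoplasm. Over all genes, chromatin and nucleoplasm calls were 44.2% and 45% as deposited and 22.8% and 64.6% at equal ERCC totals. At equal totals they were 14351 and 9018 of 26489 genes. The median of the 5 at equal ERCC totals was -1.64, close to the -1.71 of protein-coding genes. MKLN1, whose short-read gene overlaps the start of LINC-PINT, had 0.76 (SE 0.05), against 3.79 for LINC-PINT. MORC2, which encodes a chromatin-silencing ATPase and starts 471 bases from TUG1 on the other strand, had -0.32 (SE 0.05), against 0.86 for TUG1, although at equal totals it turned to 0.14. IRX5, a homeobox gene that starts 1676 bases from CRNDE, had -0.35 (SE 0.07), against 2.71, and turned to 0.12 (adjusted p = 0.15) at equal totals. EPB41L1 (-1.27) and NREP (0.31) lie farther away, at 40486 and 163062 bases from NORAD and EPB41L4A-AS1. EPB41L4A, which gives EPB41L4A-AS1 its name and overlaps it on the other strand, had 1.23 (SE 0.05), near the 0.98 of the lncRNA, while OIP5 had -1.90 (SE 0.09), below the -0.26 of the merged gene over OIP5-AS1.

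For each of the 5 named lncRNAs, the lncRNA with the closest profile was sought among 1001 candidates, as the distance between their log2 values over the 6 libraries after centering. NORAD was closest to OVCH1-AS1 (distance 0.0864), the gene whose span holds the shared sequence on chromosome 12. EPB41L4A-AS1 was closest to SNHG25 (0.172), another snoRNA host gene by name, with a fold change of 1.09 (SE 0.18). LINC-PINT was closest to BMS1P1 (0.142), CRNDE to ENSG00000205740 (0.158) and TUG1 to ZNNT1 (0.176). These distances describe 6 libraries in 2 fractions and carry no test.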

How the data were processed

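The authors aligned short reads with HISAT2 2.1.0 to hg38 with the ERCC sequences, assembled them with StringTie guided by GENCODE, merged the assemblies and counted genes from coverage. The deposited short-read signal is a normalized count, scaled by the authors with a size factor from DESeq2 for each library. For long reads, the authors used minimap2 and StringTie in its long-read mode, and the deposited values are TPM per transcript. Whether the long-read table was made before or after the authors assigned strands is not given in the sources used here.

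Values were divided by the smallest nonzero value of their library. All came out whole within a relative 1e-06, which gave recovered reads. Genes with at least 10 normalized counts in 3 libraries were tested with limma 3.58.1 (R 4.3.3) with a trend on log2(normalized count + 1), so that changes of low genes are understated. The 6 libraries entered without covariates, and p-values were adjusted by Benjamini-Hochberg. In simulated counts, 99 of 99 genes changed by 3 and 86 of 98 changed by 1 (log2) were called. Recovered reads also went through edgeR 4.0.16 and DESeq2 1.42.0. Further alternatives were other scalings, pseudocounts, filters, the replicate number as a block and each library left out. The short-read libraries of both fractions came from 3 independent cultures per the labels, which do not say whether libraries with the same number share a culture. ERCC scaling divided each library by its ERCC sum.

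Names and positions used GENCODE 44 on hg38, a later release than that of the transcript versions in the tables. Of 35967 assembled MSTRG genes, 29034 were named by the span rule. Windows of 50 bases were looked up on both strands of the assembled chromosomes. The members, gene lists and rules for naming genes were chosen with earlier results of these data known. These covered the 8 lncRNAs, 4 markers, nearest coding genes by start, the CYTOR copy and partner genes. They also covered snoRNA hosts, chromatin-retained lncRNAs, closest profiles and leading long-read transcripts. OVCH1-AS1 and the chromosome 5 genes with NORAD sequence, genes on the other strand, and genes sharing a merged span were chosen after their values were seen. So were the hosted snoRNA entries. A gene of the partner list is counted but not reported by name here.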

Additional observations from a re-analysis of the deposited data

How the results depend on the processing

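The scaling decided more than any other choice. On the deposited scale, the counts of 4 lncRNAs higher in chromatin, 1 higher in nucleoplasm and 2 above a log2 fold change of 2 were the same with edgeR, DESeq2, TMM, both pseudocounts, both filters, the replicate block and without each library in turn (4 to 4, 1 to 1 and 2 to 2). At equal totals 0 were higher in nucleoplasm, with NORAD at 0.041 and the genes over DANCR, OIP5-AS1 and CYTOR at 0.32, 0.20 and 0.27 in place of negative values. At equal ERCC totals the counts were 2, 2 and 1, with TUG1 at -0.47 and EPB41L4A-AS1 at -0.34 in place of positive values. All genes moved with them: calls higher in chromatin were 49.5% of all calls as deposited, 61.4% at equal totals and 26.1% at equal ERCC totals. DESeq2 alone lost the call of the gene over CYTOR (-0.10, adjusted p = 0.145).

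On the ERCC scale, leaving out each library in turn gave 2 to 2 lncRNAs higher in chromatin, 1 to 3 higher in nucleoplasm and 1 to 1 above 2. The replicate numbers were not taken as pairs, since same-numbered libraries deviated together only weakly (correlations of 0.0784, 0.0552 and 0.061), although each was highest with its own number. With the replicate block, EPB41L4A-AS1 passed on the ERCC scale (-0.34, adjusted p = 0.0336), which made 3 higher in nucleoplasm, and no other call of the 8 changed.

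Of the 41 long-read transcripts above 0, 15 were above 1 TPM in both libraries, 30 to 31 were above 0 in either library alone, 64 had a span that touched an annotated exon of the 8 genes on the same strand, whatever their name, and 67 were counted when those on the other strand were added to the 41. Spans were used, as exon positions are not in the long-read table. The median level per kilobase of the 5 lncRNAs went from 494 to 1292 in chromatin and from 194 to 326 in nucleoplasm with the longest transcript in place of all exons. TPM holds no depth, so isoforms at 0 in 1 library cannot be called absent there.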
